A study of Mus musculus with 2 samples.

Results

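The transcripts described here were the protein-coding transcripts with an intron value, at least 35 exons in GENCODE M21 and a span from start to end of at most 200000 bases. The rule chose 754 transcripts of 413 genes, out of 91702 transcripts with an intron value and 121429 in the table. It used exon number, biotype and span, and no measured value. The data came from wild-type, feeder-depleted DTCM23/49 XY mouse embryonic stem cells, a pluripotent cell line that was grown on gelatin with serum and leukemia inhibitory factor. Cells received 4-thiouridine (4sU), a uridine analogue that enters new RNA, at 200 µM for 10 min, and labeled RNA was biotinylated and separated on streptavidin beads from the RNA left in the supernatant. Both libraries analysed were replicates numbered 1, the labeled library and the library that the labels call preexisting RNA in one field and total RNA in another. The latter was taken as the unlabeled pool, following the methods of the study. With 1 library per pool there was no replicate check and no test, so each difference below is one between these 2 libraries, and transcripts do not stand in for replicates.

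A primary transcript is cut at each exon boundary by the spliceosome, so a transcript with many exons needs many cuts before its message is complete. Much of this splicing takes place while the polymerase is still on the gene. Genes with so many exons typically encode very large proteins, among them motor and scaffold proteins, giant kinases and ubiquitin ligases, chromatin remodelers, ion channels and collagens. After a short pulse of 4sU, the intron to exon ratio is high in labeled RNA and lower in unlabeled RNA, since an intron is in most cases lost within minutes while the spliced exons persist.

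Exons of 6 members are shown because these members were among those with the lowest or the highest labeled intron to exon ratio in the 71 genes with a mean exon value of at least 100, as described below. Intron sequence was not used here. For each, the wholly coding internal exon nearest the transcript's median exon length was taken from the GENCODE M21 transcript sequences (GRCm38). Capitals mark the first base and the last 3 bases of the exon, which are the exon side of its splice sites. The exons of Fasn, Tpr and Prpf8, of low ratio, were exon 29 at chr11:120812039-120812217 (minus strand), exon 10 at chr1:150408744-150408884 (plus strand) and exon 2 at chr11:75487625-75487793 (plus strand). Those of Ino80, Usp24 and Phip, of high ratio, were exon 21 at chr2:119426589-119426722 (minus strand), exon 20 at chr4:106370984-106371095 (plus strand) and exon 26 at chr9:82893525-82893649 (minus strand).
Fasn: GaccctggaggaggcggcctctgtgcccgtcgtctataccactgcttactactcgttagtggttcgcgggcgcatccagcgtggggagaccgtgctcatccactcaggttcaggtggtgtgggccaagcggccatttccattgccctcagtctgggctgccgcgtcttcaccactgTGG
Tpr: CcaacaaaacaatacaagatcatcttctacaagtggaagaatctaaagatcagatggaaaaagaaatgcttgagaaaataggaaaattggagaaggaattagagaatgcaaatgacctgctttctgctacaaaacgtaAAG
Prpf8: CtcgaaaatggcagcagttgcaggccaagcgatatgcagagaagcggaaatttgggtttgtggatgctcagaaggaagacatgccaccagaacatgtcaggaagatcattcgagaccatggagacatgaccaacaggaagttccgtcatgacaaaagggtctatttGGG
Ino80: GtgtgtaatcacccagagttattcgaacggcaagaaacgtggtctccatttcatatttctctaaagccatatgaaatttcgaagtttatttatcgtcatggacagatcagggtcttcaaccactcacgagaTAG
Usp24: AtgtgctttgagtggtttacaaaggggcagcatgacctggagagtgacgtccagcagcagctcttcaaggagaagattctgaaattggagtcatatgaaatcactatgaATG
Phip: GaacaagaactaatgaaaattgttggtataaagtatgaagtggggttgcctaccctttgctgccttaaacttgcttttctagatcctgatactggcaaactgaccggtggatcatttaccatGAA
Across the 18892 exon junctions of the members, with the most abundant member standing for each gene, the upstream exon ended in AG at 56.5%, and AG was followed by G in the next exon at 29.997%. The corresponding shares were 55.6% and 27.7% over 139542 junctions of coding transcripts with 2 to 34 exons, so the exon letters at the junctions had similar shares in both.

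The members included 29 collagen genes, which encode the triple-helical proteins of the extracellular matrix. Their 1520 exons included 346 of exactly 54 bases, and 333 of these had GGN, a glycine codon, as the first triplet and then at intervals of 3 triplets. These exons were unevenly spread, with 298 of the 346 in 12 genes and 1 to 6 in each of the other 17. The first exon of this kind is shown for Col18a1 (exon 27, chr10:77067379-77067432, minus strand), Col27a1 (exon 4, chr4:63231792-63231845, plus strand) and Col5a1 (exon 15, chr2:27965251-27965304, plus strand). It was chosen to show the repeat, and the 6 GGN triplets of each are in capitals. In Col18a1 it was the only exon of this kind, and Col17a1 had none.
Col18a1: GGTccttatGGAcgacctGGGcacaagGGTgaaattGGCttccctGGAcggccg
Col27a1: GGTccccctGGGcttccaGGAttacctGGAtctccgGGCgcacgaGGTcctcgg
Col5a1: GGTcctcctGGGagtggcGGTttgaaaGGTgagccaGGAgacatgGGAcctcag
Exons of 54 bases made up 2.13% of the wholly coding internal exons of members, against 0.475% in coding transcripts with 2 to 34 exons, both with 1 transcript per gene. Col27a1 had 33 exons of 54 bases, Col11a1, Col11a2 and Col5a3 31 each and Col5a1 29. Internal coding exons whose length is a multiple of 3 made up 45.0% in members and 39.3% in the transcripts with fewer exons.

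With 1 transcript per gene, exons and introns of members were shorter than those of transcripts with 2 to 34 exons. The median over members (1 per gene) of the median exon length was 131.5 bases, and that of the median intron length was 1053.5 bases, against 145 and 1481.75 bases in transcripts with 2 to 34 exons. Transcripts with 20 to 34 exons had 126 and 1286 bases, so exons of members were longer than theirs and introns shorter. Over all transcripts of the main set defined below, the median exon length was 134 bases in members and 132 in transcripts with 2 to 34 exons. The exon sum of members (1 per gene) had a median of 7206 bases, of which 5880 were coding. The members lay on 21 chromosomes. Their exon number had a median of 41 and reached 152 in Neb, which encodes the giant sarcomere protein nebulin.

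The deposited values are relative abundances called TPM, and the exon and intron rows of a library added up to 10 TPM totals. They are per length, so that levels can be compared between genes, but they keep no read count, the depth is unknown and no counting error can be given. Introns took 15.4% of the labeled and 6.26% of the unlabeled library. Of the markers checked, pluripotency genes were high in both libraries (Nanog 1099 labeled and 2416 unlabeled, Pou5f1 783 and 1198), and all 9 had an exon value above 70. Of 8 markers of endoderm, Gata6, Sox17 and Foxa2 were at 0 and Pdgfra, Gata4 and Sox7 were below 9, whereas Dab2 was at 18.8 and 117.5 and Sparc at 1684 and 4364, and of 8 fibroblast markers Col3a1, Postn and Lum were at 0, with the highest value at 14.5 for Thy1. Among early mesoderm and neural markers, T, Mixl1, Eomes, Mesp1 and Sox1 stayed below 5, whereas Nes (15.7 and 26.3), Pax6 (138 and 151) and Tubb3 (133 and 157) did not. Their part in the results was not tested.

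Of the 754 members, 97 had a value of 0 among their 4 values and 107 more had a mean exon value of 1 or less. The main set held the other 550 transcripts of 300 genes, or 72.9% of members, against 67.6% of coding transcripts with 2 to 34 exons. The labeled exon value was 0 in 48 members and the unlabeled in 84, while the intron value was 0 in 1 labeled and 9 unlabeled cases. The isoforms of a gene share exons, introns and reads. Counts below are over transcripts unless 1 transcript per gene, the member of highest mean exon value, is named.

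The 8 most abundant members had mean exon values from 633 to 1945. Top2a, the topoisomerase that untangles chromosomes at division, had exon values of 1069 in labeled and 2821 in unlabeled RNA and intron values of 89.7 and 22.7. Prrc2c, a stress granule protein gene, followed with exon values of 603 and 1678 and intron values of 56.6 and 8.40. Tpr, which encodes the nuclear basket of the pore, had 581 and 1300 on exons and 43.0 and 5.70 on introns. In each of them exons were higher in the unlabeled and introns higher in the labeled library. The next were Usp9x, a ubiquitin protease, with exon values of 299.8 and 1286, Rif1, a replication timing factor, with 392.1 and 1056, and Trip12, a ubiquitin ligase, with 321 and 1090. Cnot1, the scaffold of the deadenylase complex, had exon values of 282 and 1011 and Prpf8, the core protein of the spliceosome, 275 and 991. Rif1 had the highest intron values of the 8, at 102 in labeled and 23.2 in unlabeled RNA.

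**Figure D1:**
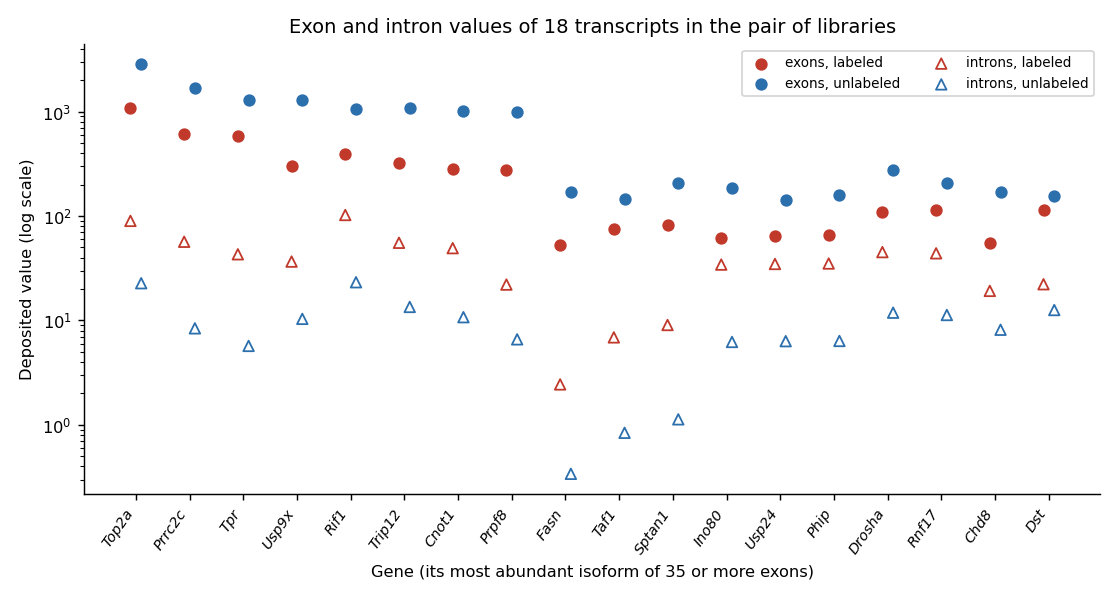
Exon values (filled circles) and intron values (open triangles) of the most abundant isoform with 35 or more exons of 18 named genes, in labeled (red) and unlabeled (blue) RNA, as deposited and on a log scale. In all 18 the exon value was higher in unlabeled RNA and the intron value higher in labeled RNA; Fasn had the lowest intron values, 2.44 and 0.340.

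Of this order, the part on introns held over nearly the whole main set and the part on exons over most of it. The labeled intron value was above the unlabeled in 545 of the 550 members (99.1%, against 97.3% of transcripts with 2 to 34 exons), and the labeled exon value was below the unlabeled in 466. It was at or above it in 84 members (15.3%), beside 36.3% of all coding transcripts and 16.6% of those with 20 to 34 exons. The 5 exceptions on introns were 3 isoforms of Myh14, a nonmuscle myosin heavy chain gene, and 2 of Pkd1l1, a polycystin family gene. Myh14 isoforms had intron values of 3 to 4.17 in labeled and 3.66 to 5.85 in unlabeled RNA. Pkd1l1 had intron values of 81.7 and 83.9 in its most abundant isoform, whose exon values were 2.06 and 0.560. The annotation places Gm11991, with a mean exon value of 277, on the same strand within the span of Pkd1l1, and whether its reads entered the intron value was not tested.

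The intron to exon ratio was then formed within each library. In labeled RNA its median over the 550 members was 0.466 (quartiles 0.245 and 0.810), and in unlabeled RNA it was 0.0567 (quartiles 0.0253 and 0.153). Coding transcripts with 2 to 34 exons had medians of 0.565 and 0.110. With 1 transcript per gene, the labeled medians were 0.476 in members and 0.468 in the others, so the lower labeled ratio of members was lost, while the unlabeled medians were 0.0578 and 0.0924. The ratio fell from labeled to unlabeled RNA by a median factor of 7.46 in members and 5.07 in the others. In the part of the latter with 20 to 34 exons the factor was 7.23, close to that of members. Summed over all 754 members, without the main-set filter, introns stood at 0.282 of exons in labeled and 0.0360 in unlabeled RNA. For all 43758 coding transcripts with 2 to 34 exons within the span limit they stood at 0.258 and 0.0740. The summed labeled ratio thus had the opposite order to the main-set medians, but over a different set of transcripts. The members' labeled and unlabeled ratios went together across transcripts (Spearman's rho 0.87, n = 550, a description, since both ratios are divided by exon values of the same transcript).

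The labeling model places each transcript in the plane of the ratios. A labeled ratio of 1 or more, which that model cannot give, was found in 105 of 550 members (19.1%, 95% Wilson interval 16.03 to 22.6%), beside 28.2% of all coding transcripts. In 4 members the labeled ratio was below 1 and also no higher than the unlabeled one (0.727%), beside 5.1% of all coding transcripts. The labeled ratio was at least 10 times the unlabeled in 175 members (31.8%, interval 28.1 to 35.8%), beside 22.6% of all coding transcripts. In transcripts with 20 to 34 exons the corresponding shares were 20.01%, 1.09% and 30.8%, close to those of members. The distance from all coding transcripts is therefore not read as particular to members. Of the remaining members, 136 lay above the line over which the rates have 1 solution and 305 between this line and the diagonal. The Wilson intervals cover the number of transcripts only, and isoforms of a gene are not independent. With 1 transcript per gene, 48 of 300 members (16%) had a labeled ratio of 1 or more.

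**Figure D2:**
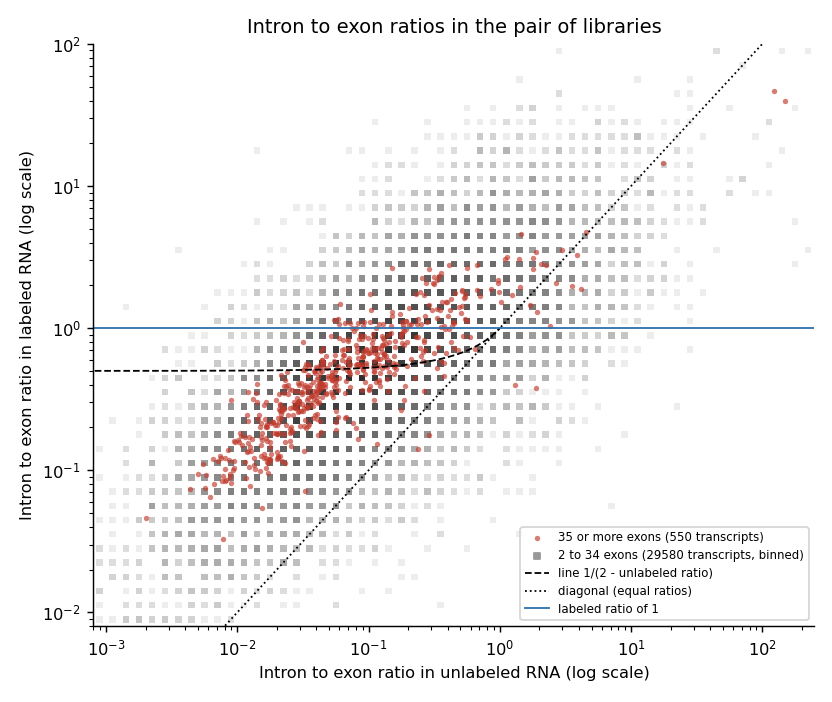
Intron to exon ratio in labeled RNA against that in unlabeled RNA, both on log scales, for 550 transcripts with 35 or more exons (red points) and 29580 coding transcripts with 2 to 34 exons (grey squares, darker for more transcripts). The lines are a labeled ratio of 1 (blue), the diagonal (dotted) and the line above which the rates have 1 solution (dashed). Red points follow a band from low to high ratios, with 305 of them between the dashed line and the diagonal and 4 below the diagonal under a labeled ratio of 1.

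Exon values of members were also lower in labeled than in unlabeled RNA to a larger degree than in other transcripts. The median labeled to unlabeled exon ratio was 0.536 (quartiles 0.401 and 0.743) in members and 0.770 in transcripts with 2 to 34 exons. In those with 20 to 34 exons it was 0.547, close to that of members. Both columns were scaled to the same total, so a ratio of 1 does not mean equal numbers of molecules. The labeled exon value was at most 0.5 times the unlabeled in 238 members (43.3%), beside 26.8% of all coding transcripts and 41.8% of those with 20 to 34 exons. It was at least 2 times the unlabeled in 20 members (3.64%), beside 13.9% and 4.91%. Of those 20, 14 were the most abundant member of their gene, all with a mean exon value under 7. The ratios of the 14 ran from 2.01 in Mroh2a to 12.85 in Col17a1, and the most abundant was Cfap43, with exon values of 8.89 and 3.93. They were named after their values had been seen.

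Exon number and span go together, so members were compared with transcripts of fewer exons and like span. In transcripts spanning up to 25 kb, the median labeled ratio was 0.266 in 46 members and 0.485 in the others, and the unlabeled ratio was 0.0374 and 0.118. From 50 to 100 kb it was 0.413 in 206 members against 0.656 in labeled RNA, and 0.0443 against 0.0937 in unlabeled RNA. From 100 to 200 kb it was 0.541 in 224 members against 0.747, and 0.0642 against 0.115. Between 25 and 50 kb, where the 74 members had a low mean exon value (median 7.18), the labeled ratio was 0.416 against 0.613, but the unlabeled ratio, at 0.0954, was close to the 0.106 of the others and above the 0.0762 of transcripts with 20 to 34 exons. Weighted over the bins, the log2 difference of medians between members and transcripts with 2 to 34 exons was -0.59 for the labeled ratio, -0.90 for the unlabeled ratio and -0.20 for the exon ratio.

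**Figure D3:**
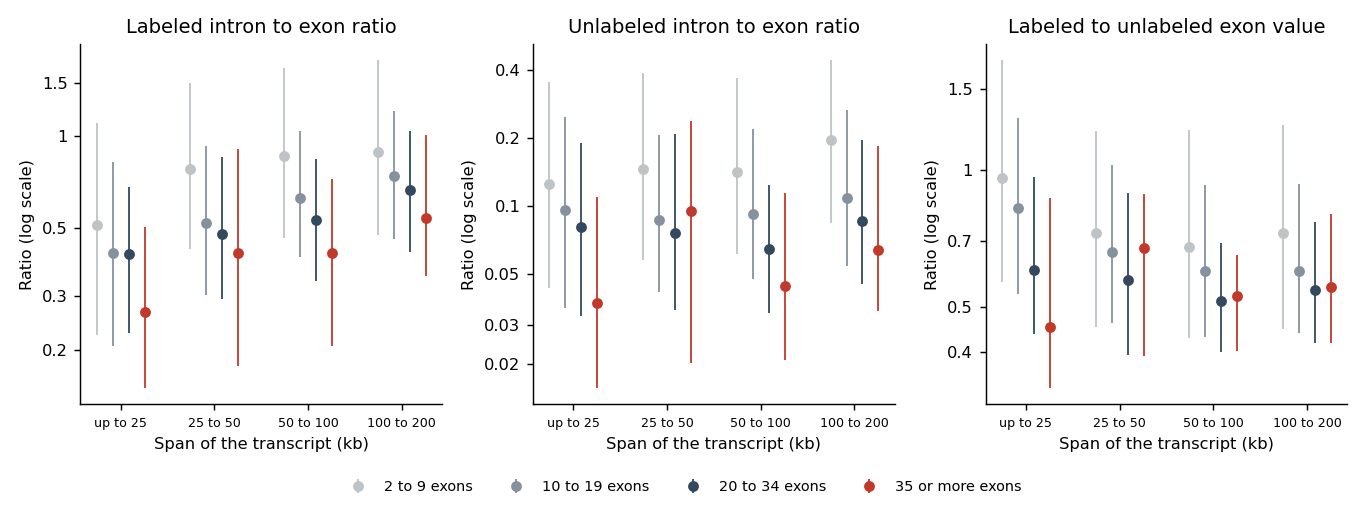
Median (points) and quartiles (bars) of the labeled intron to exon ratio, the unlabeled intron to exon ratio and the labeled to unlabeled exon value, all on log scales, for coding transcripts in 4 classes of exon number within 4 bins of span. The members (red) had the lowest median labeled ratio in each bin, from 0.266 up to 25 kb to 0.541 at 100 to 200 kb, and the lowest median unlabeled ratio in 3 of the 4 bins.

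Against the transcripts nearest in exon number the differences were smaller. Coding transcripts with 20 to 34 exons had a median labeled ratio of 0.524, an unlabeled ratio of 0.0731 and an exon ratio of 0.547. Within the span bins the weighted log2 difference between members and these transcripts was -0.34 for the labeled ratio and -0.43 for the unlabeled ratio. For the exon ratio it was 0.02, so the sign seen against all transcripts with fewer exons was lost.

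Ratios also went with abundance. Among members, the mean exon value went with the labeled ratio (Spearman's rho -0.72, n = 550), the unlabeled ratio (-0.79) and the exon ratio (-0.53), as descriptions across transcripts that share these values with the ratios. When members were compared with transcripts of 2 to 34 exons within bins of the mean exon value, the weighted log2 difference shrank to -0.14 for the labeled ratio and to -0.56 for the unlabeled ratio, and grew to -0.43 for the exon ratio. Above a mean exon value of 100, the 145 members had a median labeled ratio of 0.206 against 0.231, an unlabeled ratio of 0.0209 against 0.0309 and an exon ratio of 0.436 against 0.576. In the bin from 30 to 100, the labeled ratio was 0.435 in 149 members and 0.450 in the others, while the unlabeled ratio was 0.0442 and 0.0757. Against transcripts with 2 to 34 exons, the lower labeled ratio of members was thus largest within span bins, and the lower unlabeled ratio was present within bins of either kind. Against those with 20 to 34 exons, the unlabeled log2 difference was 0.05 up to a mean exon value of 10 and -0.05 from 10 to 30. It was -0.39 from 30 to 100 and -0.46 above 100.

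**Figure D4:**
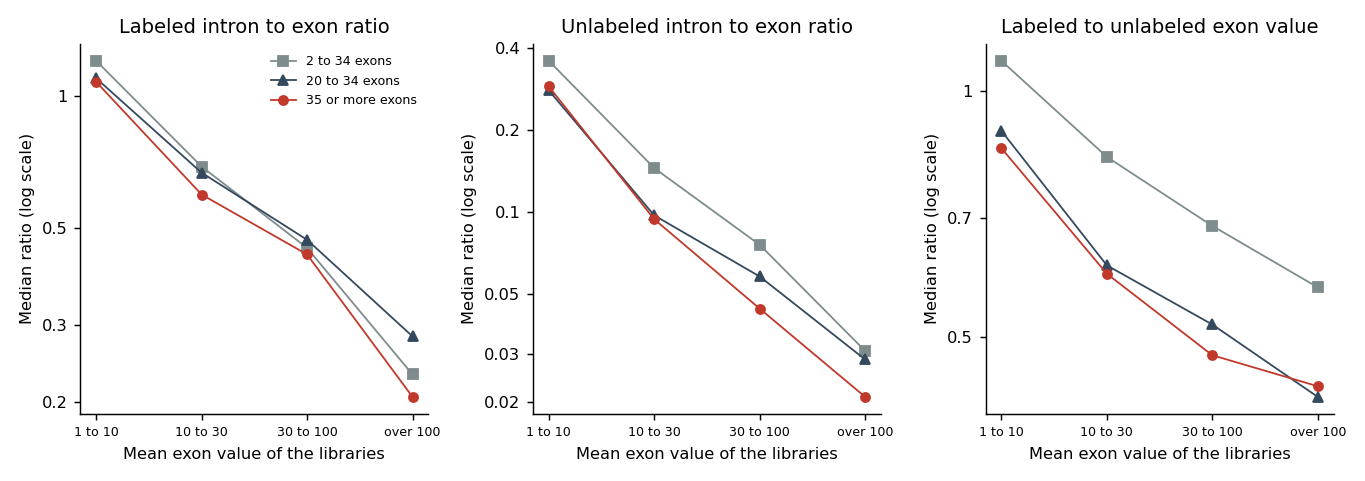
Median labeled intron to exon ratio, unlabeled intron to exon ratio and labeled to unlabeled exon value (log scales) in bins of the mean exon value, for transcripts with 35 or more (red circles), 20 to 34 (dark triangles) and 2 to 34 exons (grey squares). All medians fell with abundance; the red and grey lines lay 0.05 to 0.21 log2 units apart for the labeled ratio and 0.31 to 0.78 apart for the unlabeled ratio.

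Within the members, exon number itself had little relation to the ratios. Spearman's rho over 550 members was -0.03 with the labeled ratio, -0.06 with the unlabeled ratio and -0.16 with the exon ratio. Span gave 0.25 with the labeled and 0.13 with the unlabeled ratio. In the 71 genes with a mean exon value of at least 100, the median intron length gave 0.50 with the labeled and 0.43 with the unlabeled ratio, and exon number -0.17 and -0.07. The mean exon value gave -0.52 and -0.55 in the same 71 genes. Over all 550 members the median intron length gave only 0.15 and 0.08.

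The lowest labeled ratios among the 71 abundant genes were those of Fasn, Tpr, Prpf8, Top2a and Taf1. Fasn, which encodes fatty acid synthase, had exon values of 53.0 and 170.1 and intron values of 2.44 and 0.340, hence ratios of 0.0460 in labeled and 0.00200 in unlabeled RNA, the lowest in both libraries. Its 43 exons lie within 18702 bases, and its median intron was 117.5 bases long. Tpr had a labeled ratio of 0.0739, Prpf8 of 0.0803 with a median intron of 160 bases, and Top2a of 0.0839. Taf1, the largest subunit of the general transcription factor TFIID, had intron values of 6.88 and 0.840 and ratios of 0.0924 and 0.00579, at a mean exon value of 109.8 and a median intron of 865 bases. Sptan1, a spectrin gene, had an unlabeled ratio of 0.00547 and Prrc2c one of 0.00501, also among the 5 lowest.

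The highest labeled ratios among them were those of Ino80, Usp24, Phip, Dmxl1 and Drosha. Ino80, the ATPase of a nucleosome remodeling complex, had exon values of 61.1 and 186 and intron values of 34.2 and 6.22, a labeled ratio of 0.560. Usp24, a ubiquitin protease, had 63.8 and 141.35 on exons and 34.7 and 6.33 on introns, a labeled ratio of 0.544. Phip, a bromodomain protein gene, had 65.4 and 159.9 on exons and 35.1 and 6.36 on introns, a labeled ratio of 0.536. The 3 genes were close to each other in all 4 values. Dmxl1, a regulator of the proton pump of vesicles, followed at 0.484 and Drosha, the nuclease that cuts microRNA precursors, at 0.412. Median introns of these 5 genes were between 1059 and 2085 bases long, against a median of 1139 over the 145 members at this level.

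In unlabeled RNA the highest ratio belonged to Dst, a giant linker of the cytoskeleton, with exon values of 113 and 156 and intron values of 22.2 and 12.6, a ratio of 0.0805. Rnf17, a tudor domain protein gene known from germ cells, followed with 0.0544, then Chd8, a remodeler, with 0.0476, Usp24 with 0.0448 and Drosha with 0.0433. The annotation has genes on the same strand within the spans of Rnf17 (Gm24392, mean exon value 74.6), Chd8 and Drosha, and on the opposite strand in Dst, and their part in the ratios was not tested. Over the 300 genes, the median labeled ratio was 0.486 in the 108 with no overlapping gene and 0.470 in the 192 with 1 or more, and the unlabeled ratio 0.0532 and 0.0609.

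The labeled to unlabeled exon ratio spread from 0.233 to 0.723 over the 71 abundant genes. Dst was at the upper end, followed by the kinetochore motor gene Cenpe (233 labeled and 346 unlabeled, ratio 0.672), the cohesin loader gene Nipbl (166 and 246, 0.672), the endocytic scaffold gene Itsn2 (0.623) and the remodeler gene Atrx (430.1 and 696, 0.618). At the lower end stood Usp9x (0.233), the pore scaffold gene Nup160 (104 and 400.3, 0.260), Prpf8 (0.277), Cnot1 (0.279) and the remodeler gene Chd4 (154 and 530.1, 0.290). None of the 145 abundant members had a labeled exon value at or above the unlabeled. Their median exon ratio was 0.436, close to the 0.423 of transcripts with 20 to 34 exons at this level. In the latter transcripts the median also fell with abundance, from 0.894 up to a mean exon value of 10. The absence of higher labeled exon values is therefore not read as particular to members.

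Grouped by function, members of the transcription, splicing and RNA decay list had the lowest ratios. All 9 of its member genes were in the main set, with a median labeled ratio of 0.164 (0.0540 to 0.467) and unlabeled ratio of 0.0155. Cpsf1, a subunit of the cleavage and polyadenylation factor, was lowest in labeled RNA at 0.0540, with exon values of 27.8 and 49.7. Snrnp200, the spliceosome helicase, had 0.136 and Supt6, an elongation factor, 0.179. The nuclear pore list followed with a median of 0.273 over 6 genes, where Nup155 had 0.206 and Nup160 0.287. In the translation and ribosome assembly list (4 genes, median 0.287), Mdn1, a ribosome assembly ATPase of 102 exons, had exon values of 118 and 283 and a labeled ratio of 0.196, Utp20 had 0.279 and Heatr1 0.373. The median over all 300 genes was 0.476, and that over genes of 2 to 34 exons 0.468. These 3 lists also had median mean exon values of 171 to 203, against 34.7 over the 300 genes.

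Ubiquitin ligases and proteases (16 of 17 genes in the main set) had a median labeled ratio of 0.336 and unlabeled ratio of 0.0238. Huwe1, a ligase of 81 exons, had exon values of 279 and 848 and a labeled ratio of 0.117, and Ubr4, a ligase of 106 exons, 0.202. Rnf213 was highest at 0.840. Chromatin remodelers and modifiers (22 genes) had a median of 0.345, from 0.0909 in the methyltransferase gene Kmt2d to 0.729. Atrx had 0.112, Chd4 0.131 and Chd1 0.345. The PI3K-like kinases and their relatives lay close together: 5 genes from 0.307 in Trrap to 0.454 in Atm, with Smg1 at 0.324, Mtor at 0.363 and Atr at 0.399. Their unlabeled ratios were between 0.0279 and 0.0414, although Smg1, at exon values of 83.3 and 178, was over 2 times as abundant as Mtor at 28.99 and 85.6. DNA replication and repair genes (5 genes) had a median of 0.356, from 0.162 in the polymerase gene Pole over 0.260 in Rif1 and 0.428 in Fanci to 0.670.

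Cytoskeletal genes spread more widely. The actin and spectrin list (21 of 22 genes in the main set) had a median labeled ratio of 0.359 and a range of 0.0934 to 2.65. Sptbn1, a spectrin gene, had exon values of 181 and 571 and a ratio of 0.138, Macf1, a linker of 90 exons, 0.212 and Myo10, a filopodial motor, 0.223. The microtubule list (14 genes) had a median of 0.355, with Cenpe at 0.135, Cep192 at 0.159, the dynein heavy chain gene Dync1h1 at 0.202, the polymerizing factor gene Ckap5 at 0.207 and Kif13b highest at 1.79. Membrane traffic genes and large GTPase regulators (24 of 26) had a median of 0.571 and 7 of 24 genes with a ratio of 1 or more, beside 28.2% of all coding transcripts and 16% of the 300 genes. Among the more abundant of them were Dnajc13 at 0.350, Itsn2 at 0.279 and Dmxl1 at 0.484, and Vps13a, a lipid transfer protein gene, had exon values of 26.5 and 63.4, a labeled intron value of 27.3 and a ratio of 1.03.

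**Figure D5:**
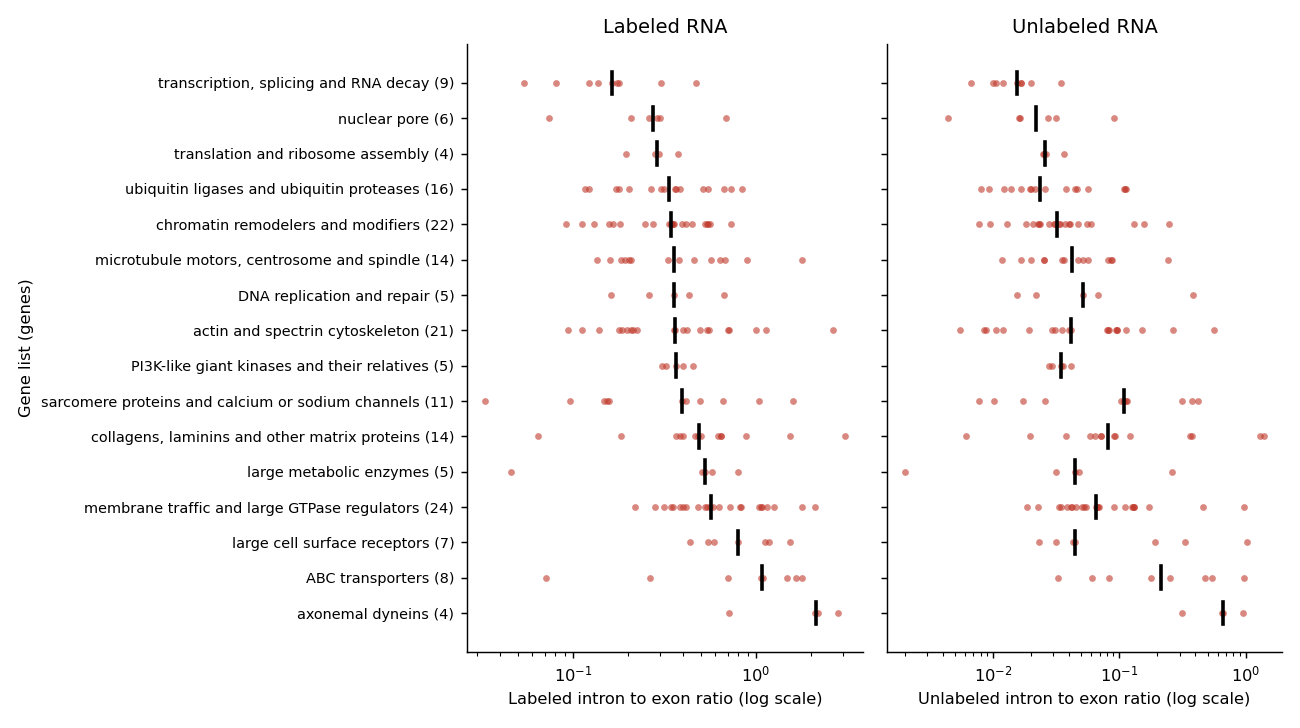
Labeled (left) and unlabeled (right) intron to exon ratio of each member gene (red points, most abundant member per gene, main set, log scales) in 16 gene lists ordered by their median labeled ratio (black bars), with the number of genes in parentheses. The median labeled ratio rose from 0.164 in transcription, splicing and RNA decay to 2.13 in axonemal dyneins. Abundance differed between lists too, with median mean exon values of 175 in the former and 1.61 in the latter.

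Lists of tissue-restricted genes had few members in the main set. Of 37 genes for collagens, laminins and other matrix proteins, 14 were in it, 22 had a mean exon value of 1 or less and 9 had no exon signal in either library. Fn1, the fibronectin gene, was the exception, with exon values of 309 and 811 and a labeled ratio of 0.182. Hspg2, the perlecan gene, had exon values of 17.4 and 60.4, Agrn, the agrin gene, 31.9 and 44.6, and Col18a1, the gene of a basement membrane collagen, 18.04 and 50.1. Of 24 genes for sarcomere proteins and channels, 11 were in the main set (median labeled ratio 0.392). Neb had exon values of 35.8 and 19.1 in its most abundant isoform, higher in labeled RNA, and a labeled ratio of 0.154. The skeletal myosin genes Myh13 (10.98 and 14.5) and Myh3 (11.3 and 13.2) had labeled ratios of 0.0956 and 0.147.

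Axonemal dyneins, the motors of cilia, had 4 of 7 genes in the main set, with mean exon values of 2.41 or less. Their labeled ratios had a median of 2.13, with Dnah10 at 2.10, Dnah17 at 2.17 and Dnah2 at 2.80. ABC transporters (8 of 12) had a median of 1.08, with Abca2 at 0.0713, Abca7 at 0.704 and Abca5 at 1.47. All 12 had a mean exon value of 10 or less, a level at which the median labeled ratio of all members was also 1.08. Large cell surface receptors (7 of 9) had a median of 0.797 and were also low, with a median mean exon value of 4.70. Igf2r, which encodes the receptor that clears IGF2, had exon values of 12.6 and 59.4 and a labeled ratio of 0.797, Lrp2 0.435 and Sorl1 0.548. Of 11 large metabolic enzymes, 5 were in the main set. Besides Fasn, Cad, the enzyme that starts pyrimidine synthesis, had exon values of 16.6 and 97.1, the lowest labeled to unlabeled exon ratio of the main set at 0.171, with intron values of 8.77 and 4.66, and Pi4ka, a lipid kinase gene, had a labeled ratio of 0.504. In all, 175 of the 300 genes were in a list.

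Intron values were also found in members with no exon signal. In 41 members of 29 genes both exon values were 0, yet all 41 had a labeled intron value above 0 (median 0.560, quartiles 0.260 and 1.46, highest 8.90 in Ros1) and 39 an unlabeled one (median 0.190, highest 3.30 in Myo7b). The labeled value was the higher in 40 of 41, by a median factor of 3.42 in those where both were above 0. In 6067 transcripts of 2 to 34 exons with both exon values at 0, the median intron values were 0.470 and 0.110. Of these 6067, 4569 had a labeled intron value above 0 and 3953 an unlabeled one, and in 4340 the labeled value was the higher. Among the 550 members of the main set, 37 had a labeled intron value at or below 1.46, the upper quartile of the members without exon signal, and 251 at or below 8.90. The source of these intron values was not tested.

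The 105 members with a labeled ratio of 1 or more came from 61 genes and were low in abundance. Their median mean exon value was 2.64 and the highest 44.9, against a median of 46.4 for members with a ratio under 1. Of the 105, 88 had a mean exon value of 10 or less, out of 157 such members in all (56.1%). Transcripts with 2 to 34 exons at this level had a like share, 57.7%, so the share is not read as particular to members. Labeled intron values of the 105 had a median of 4.47, against 12.9 in the members under 1, and 5 of the 105 were at or below 1.46. The most abundant of them were Vps13a, then Gbf1, an activator of Golgi GTPases, with exon values of 18.1 and 64.7 and a labeled intron value of 19.6, and Mon2, an endosome protein gene, with 21.9, 43.0 and 24.1. Itsn1, Wdfy3, Zzef1 and Pcnx came next, with labeled ratios of 1.02 to 1.26. No member above a mean exon value of 100 had such a ratio. Labeled ratios at this level were low in other transcripts too, with medians of 0.231 for 2 to 34 exons and 0.283 for 20 to 34, against 0.206 in members.

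Isoforms of a gene were compared next. In 130 genes with at least 2 members in the main set, the mean exon values of the most and the least abundant member differed by a median of 1.15-fold, and in 115 of the 130 by at most 1.5-fold. Their labeled intron values also differed by a median of 1.15-fold, and their labeled ratios by 1.23-fold. Some differed more, such as Piezo1, a mechanosensitive channel gene, with labeled ratios of 0.233 and 0.720, and Cacna1b, a calcium channel gene, with 0.664 and 2.82. Both were named after their values were seen. The labeled ratio was higher in the less abundant isoform in 94 of 130 genes. Where a gene also had a main-set isoform of fewer than 35 exons, in 143 genes, the member had the lower labeled ratio in 72 and the lower unlabeled ratio in 72. It was lower in 54 of 65 genes where the member was the more abundant isoform and in 18 of 78 where it was the less abundant, so the isoform with the higher exon value, the divisor, mostly had the lower ratio.

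Rates of processing and degradation were computed from both ratios for the 441 members with compatible ratios. The processing half-life had a median of 2.99 min (quartiles 2.52 and 4.94) in members, 3.89 min in transcripts with 2 to 34 exons and 3.45 min in those with 20 to 34. The degradation half-life had a median of 18.5 min (quartiles 9.56 and 33.01) in members, 19.1 min and 16.6 min in the others. Only 139 members had 1 solution and 50 had 2. In 252 the rates are those of the nearest approach of the model to the ratios and no solution. Among the 189 with a solution, the median of the natural log of the processing rate per 10 min was 0.268, against 0.00933 in transcripts with 2 to 34 exons treated alike, and that of degradation -1.13 against -1.25. With the second library read as total RNA, processing was 0.948 against 0.897 and degradation -2.26 against -1.88, so the order of degradation turned. With the full objective minimised over both variables, processing was 1.35 against 1.34 and degradation 0.317 against 0.388. The values therefore moved with the form of the equations by more than the groups differed.

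Above a mean exon value of 100, half-lives of single members can be read beside their values. Of the 145 members at this level, 136 had no solution, 4 had 1 and 5 had 2. The genes given here were named for a low or high labeled ratio. Rates are computed from the ratios, so the short and long processing half-lives partly restate that choice. Fasn had a processing half-life of 1.97 min and a degradation half-life of 68.98 min, Top2a 2.52 and 45.6 min, Prpf8 2.41 and 46.4 min and Tpr 2.20 and 47.7 min, none from a solution. Ino80 had 5.06 and 40.2 min, Usp24 4.64 and 25.3 min and Phip 4.55 and 27.0 min, each from 1 solution. Drosha had 1.94 and 3.89 min from the choice between 2 solutions.

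The 5 members with the most exons had exon values from 0.0300 to 137, all far below those of the most abundant members. Neb, at 152 exons, had exon values of 23.1 and 12.4 and intron values of 3.81 and 1.04. Ttn, titin of the sarcomere, at 145 exons in an isoform within the span limit, had exon values of 0.190 and 0.160. Col7a1, of the fibrils that anchor skin, at 119 exons, had 0.360 and 0.0300. By these values Ttn and Col7a1 lay outside the main set. Ubr4, at 106, had 38.8 and 137, and Ryr1, the calcium release channel of muscle, at 106, had 4.44 and 3.27. Ubr4 alone of the 5 had a higher exon value in unlabeled RNA.

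Members and transcripts next to the limits had the following values. Transcripts of exactly 34 exons (66 in the main set) had median ratios of 0.389 labeled and 0.0550 unlabeled, and those of exactly 35 (42) had 0.418 and 0.0778. The 34-exon isoform of Prrc2c just outside had exon values of 665 and 2083, and the 35-exon isoform inside 603 and 1678. At the span limit, Pde4dip, with isoforms spanning 198884 and 198843 bases, lay just inside, with exon values of 4.09 and 4.86 in the former. Cdc42bpa at 201057 bases lay just outside, with 33.1 and 65.6. The 171 main-set coding transcripts with 35 or more exons and a longer span had median ratios of 0.666 labeled and 0.104 unlabeled and an exon ratio of 0.621, all above those of the members.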

How the data were processed

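The deposited values are a signal per transcript, exons and introns in separate rows, which the authors made with STAR 2.5.0 and RSEM (per the submitters' processing notes) and called TPM. The methods of the study name an ENSEMBL mouse release as the reference. Here GENCODE M21 of GRCm38 was used, in which 98.1% of the transcripts with an intron value were found. The rows of each library summed to 10 times a TPM total, so they were treated as relative signal. Read counts are unknown, and no interval or floor from counts can be given. The second library was used as unlabeled RNA. Its label reads total in one field, and this reading was tried as an alternative. The columns that name no sample numbered 0.

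Exon number, span and coding parts were read from the annotation. The members and the gene lists were chosen with earlier results of these data known. The main set required all 4 values above 0 and a mean exon value above 1. The labeled and the unlabeled ratio are intron over exon value within a library, without pseudocount. Differences within bins are log2 differences of medians, weighted by the number of members. Rates followed the study's equations, with the minimum of its objective where they had no solution. With 1 library per pool no test was run. Named genes were, 1 member per gene, the 8 of highest mean exon value, the 5 highest and lowest of each ratio among those at 100 or more, the 3 most abundant of each list, the 5 with the most exons and those nearest the limits. Others were named after their values were seen. The lists were PI3K-like kinases, ubiquitin enzymes, chromatin, replication and repair, transcription and splicing, nuclear pore, translation, actin, microtubules, membrane traffic, matrix, receptors, axonemal dyneins, sarcomere and channels, ABC transporters and metabolic enzymes. Alternatives changed the minimum, isoform choice, pseudocount (0.1), exon and span limits, leakage, bins and form of the equations. Scripts ran in Python 3.11.15 with numpy 2.4.6, pandas 2.3.3 and scipy 1.17.1 and were tested on simulated data.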

Additional observations from a re-analysis of the deposited data

How the results depend on the processing

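The ratios and shares of members moved with the minimum mean exon value. Above 10, the labeled ratio was 0.355, the unlabeled ratio 0.0381, the exon ratio 0.479, 4.33% of members reached a labeled ratio of 1, 4.33% fell outside the model and the ln processing rate was 0.88. Above 100, they were 0.206, 0.0209, 0.436, 0%, 0% and 0.98, and within span bins the log2 difference from 2 to 34 exons was -0.52 for the unlabeled and -0.054 for the exon ratio. With no minimum, the medians were 0.546, 0.0836 and 0.587, the shares 28.5% and 29.4%, and the differences -0.42 for the labeled and -0.52 for the unlabeled ratio. With leakage subtracted, the labeled ratio was 0.603, the exon ratio 0.400, the shares 25.5% and 26.2%, the exon difference -0.28, ln processing 0.63 and ln degradation -1.14. With 1 transcript per gene, the shares were 16% and 16.7% and the labeled difference -0.43. With no span limit, the labeled ratio was 0.509 and the exon ratio 0.564. At 40 or more exons, the exon ratio was 0.505 and its difference -0.31.

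Against 20 to 34 exons, the differences were -0.34 (labeled), -0.43 (unlabeled) and 0.021 (exon ratio, reversed). Within bins of mean exon value, they were -0.14, -0.56 and -0.43. For rates, solutions only gave ln processing 0.27 and degradation -1.13, the full objective 1.35 and 0.32, and total RNA 0.95 and -2.26, while the smaller of 2 solutions gave processing 0.88. Gene sums over coding isoforms, chosen after seeing the data, gave 0.73 and -0.83 and an exon difference of -0.28. The cause of these shifts was not tested. The other 66 values stayed within their 95% interval over transcripts. No paired analysis was possible because each pool had 1 library. Depth is unknown, so the error of low values cannot be stated.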

Other observations

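Col6a6, the gene of a collagen VI chain, lay outside the main set with exon values of 0.490 in labeled and 0.310 in unlabeled RNA. Its intron values were 6.94 and 72.2, the reverse of the order seen in most members. It was named after its values were seen. Pkd1l1 had labeled ratios of 39.7 and 46.7 and unlabeled ratios of 149.8 and 123.6 in its 2 isoforms of the main set.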
